A study of Homo sapiens with 4 samples.

Results

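The HOX cluster genes and their antisense RNAs were examined in RIP-seq of MDA-MB-231 cells, a triple negative breast cancer cell line. Members were chosen by gene name, as HOX followed by a cluster letter from A to D and a number, as HOX names that hold -AS, and as HOTAIR, HOTAIRM1 and HOTTIP. This rule found 25 of 75165 transcripts, which belong to 17 of 20298 genes. Of these genes, 14 were annotated as protein-coding and 3 as lncRNA. RIP-seq compares the RNA that is recovered with a protein by an antibody with the RNA of the starting lysate, and here the protein was YTHDC1, a nuclear reader of the RNA mark m6A. All 4 libraries came from cells that had received 3x flag-YTHDC1 from a lentiviral vector at an MOI of 4 and had been selected with puromycin at 2 μg/ml for 4 days. The IP group held 2 libraries made with an anti-flag antibody from UV-crosslinked nuclear lysate, and the input group held 2 libraries of the lysate itself, which the labels name as total RNA. The study's vector list gives a CMV promoter for this construct, so that every library, input included, came from cells with added YTHDC1, and libraries of the normal mouse IgG precipitation are not analysed here.

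HOX genes encode homeodomain transcription factors that give cells their position along the body axis, and they lie in 4 clusters, on human chromosomes 7, 17, 12 and 2. The number in a gene's name gives its place in the cluster, and genes with low numbers are generally used earlier and nearer to the head than genes with high numbers. Noncoding RNAs are made from the same clusters, many of them antisense to the coding genes. HOTTIP, at the end of the HOXA cluster, is known for binding WDR5 and guiding histone methylation to the neighbouring HOXA genes. HOTAIR, in the HOXC cluster, is known for its ties to Polycomb repression and to breast cancer metastasis. In adult epithelia and in breast cancer cells, single HOX genes remain in use in combinations that differ between cell types.

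The values are the authors' mean normalized counts, 1 for each transcript over the 4 libraries together. A value for a single library is not given, so replicate spread and depth per library are unknown, and IP and input cannot be told apart in these means. The authors' fold changes between IP and input, with their standard errors and p-values, were not used, so no error or test is given here. A gene total is the sum of the mean normalized counts of a gene's listed transcripts. These are counts of reads and grow with transcript length, so gene totals are also given per kilobase of the gene's span in RefSeq (GRCh38.p14), introns included. In such bulk libraries, fewer cells that use a gene and less RNA in each cell cannot be told apart.

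HOX transcripts had few reads in these libraries. The gene totals of the coding HOX genes ran from 8.52 to 224 with a median of 48.8, against a median of 588 over all 14050 protein-coding genes. None of the 14 coding HOX genes and none of the 3 noncoding members had a gene total above the median of its class. Only 4 of the 14 coding HOX genes (28.6%) had a gene total of at least 100, against 78.6% of all protein-coding genes. None reached 1000, which 37.8% of all protein-coding genes did. Together, the 25 transcripts summed to 1157 of 33361205 mean normalized counts, or 0.00347%.

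**Figure D1:**
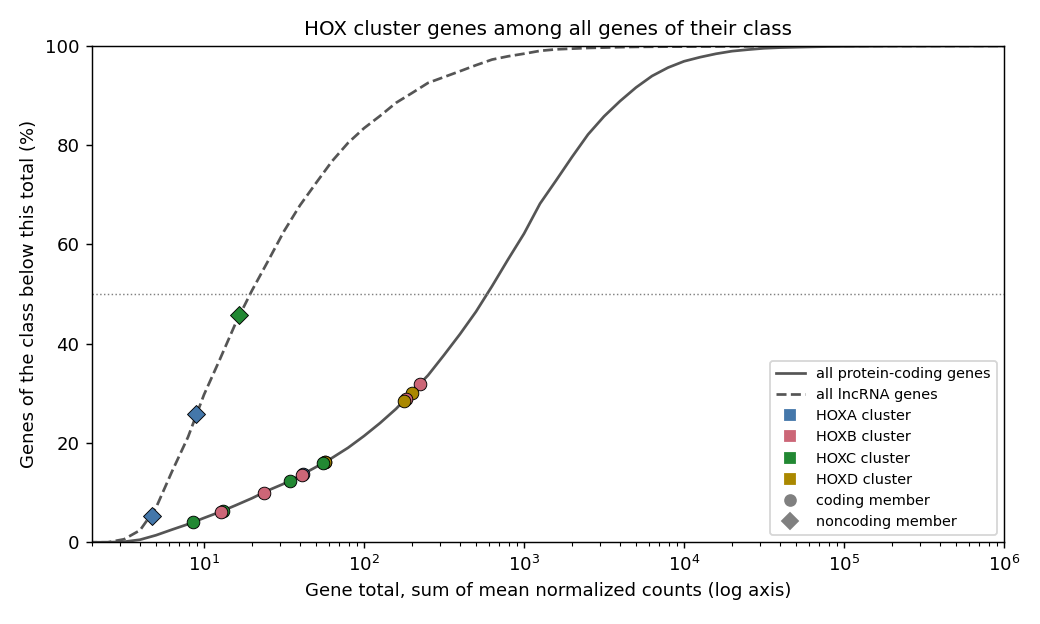
Gene totals of the 17 HOX cluster genes (x axis, log scale, in mean normalized counts) against the share of genes of the same class with a lower total (y axis, in percent), with the curves of all protein-coding and all lncRNA genes. Circles are coding and diamonds noncoding genes, colours mark the clusters, and all 17 points lie below the dotted line at 50%.

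Promoter sequences of 4 coding members are shown, 1 from HOXA and 3 from HOXD, because they share letters that the naming rule did not use while differing in other features. RefSeq promoter sequences (GRCh38.p14, 250 bases before to 50 after the start) were found for 7 of the 17 genes, HOXA13, HOXC5, HOXD1, HOXD3, HOXD4, HOTTIP and HOXA-AS2. The genes without an entry are HOXB3, HOXB4, HOXB5, HOXB6, HOXB8, HOXB9, HOXC6, HOXC8, HOXC9 and HOXC-AS2. The 250 bases before the start are printed 5′ to 3′ for HOXA13 (chr7:27200092-27200341, minus strand), HOXD1 (chr2:176188418-176188667, plus strand), HOXD3 (chr2:176157057-176157306, plus strand) and HOXD4 (chr2:176151300-176151549, plus strand). HOXC5, which had the lowest gene total of the coding genes with an entry, is described and not printed. The HOXD3 start of this table lies 4778 bases inside the gene's RefSeq span, so its sequence is that before an internal start, whereas the other starts are at the edge of the span. Capitals mark the letters CCAAT or, for the other strand, ATTGG.

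HOXA13: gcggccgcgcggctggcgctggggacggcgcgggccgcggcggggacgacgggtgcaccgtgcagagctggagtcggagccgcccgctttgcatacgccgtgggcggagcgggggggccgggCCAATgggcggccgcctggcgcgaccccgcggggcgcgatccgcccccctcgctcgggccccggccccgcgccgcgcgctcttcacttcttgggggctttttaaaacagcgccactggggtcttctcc

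HOXD1: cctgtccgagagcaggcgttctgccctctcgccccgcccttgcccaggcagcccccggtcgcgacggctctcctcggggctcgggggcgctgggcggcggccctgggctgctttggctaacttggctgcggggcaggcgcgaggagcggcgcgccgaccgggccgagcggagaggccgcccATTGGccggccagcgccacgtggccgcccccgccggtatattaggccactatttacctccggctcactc

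HOXD3: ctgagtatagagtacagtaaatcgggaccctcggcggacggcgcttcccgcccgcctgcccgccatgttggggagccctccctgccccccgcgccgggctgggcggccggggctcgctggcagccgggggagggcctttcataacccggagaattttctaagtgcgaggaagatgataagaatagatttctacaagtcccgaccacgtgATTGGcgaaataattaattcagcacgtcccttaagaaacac

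HOXD4: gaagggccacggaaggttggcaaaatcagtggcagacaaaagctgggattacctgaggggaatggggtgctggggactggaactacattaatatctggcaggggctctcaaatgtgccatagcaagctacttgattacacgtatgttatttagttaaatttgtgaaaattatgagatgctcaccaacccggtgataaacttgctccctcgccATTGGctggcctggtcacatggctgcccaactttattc

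Of the 7 member promoters of 300 bases, 6 held CCAAT on either strand, against 34.6% of all 35116 promoters, and HOXA-AS2 had no match. This motif was chosen after the sequences had been read. The match began 38 bases before the start in HOXD4, 41 in HOXD3, 69 in HOXD1, 128 in HOXA13 and 206 in HOTTIP. HOXC5 held 2 matches, the nearer of them 77 bases before the start. The matches of HOXA13 and HOTTIP are not separate, because their windows share 171 bases and hold the same letters. TATAAA on either strand was in 0 of the 7 windows, against 11.5% of all promoters. The count of CG dinucleotides differed widely between members, with 44 in the HOXA13 window, 36 in HOXD1, 25 in HOXD3 and 4 in HOXD4, against a median of 14 over all promoters. HOXD4 thus had few CG dinucleotides beside a gene total of 177, and HOXA13 had many beside a gene total of 41.8. HOXA-AS2 and HOXD3 went the other way. HOXA-AS2 had 3 beside 4.71, the lowest gene total of the 7, and HOXD3 had its 25 beside 198, the highest. HOTTIP, like HOXA13, had many beside a low gene total, 41 beside 8.93. HOXC5 had 15, close to the median over all promoters, beside 13.1. A match describes letters in a window and says nothing about a factor bound there.

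The coding genes fell into a higher and a lower set. HOXB3, HOXD3, HOXB9 and HOXD4 had gene totals of 177 or more, and the next gene, HOXB4, had 57.4, so that a 3.08-fold step lay between these sets. The 4 genes held 69.4% of the summed gene totals of the coding HOX genes. HOXB3 (ENSG00000120093.11, chr17:48548870-48590241), an anterior gene with roles in the hindbrain and in blood cell precursors, had the highest gene total, 224. HOXD3 (ENSG00000128652.11, chr2:176152529-176173098), which acts in the upper neck skeleton, followed with 198. HOXB9 (ENSG00000170689.10, chr17:48621156-48626358), a thoracic patterning gene with a role in mammary gland development, had 182. HOXD4 (ENSG00000170166.6, chr2:176151550-176153226), a hindbrain and neck patterning gene, had 177.

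Each of these 4 genes still lay low among protein-coding genes. The gene total of HOXB3 exceeded that of 31.9% of all protein-coding genes, HOXD3 that of 30.1%, HOXB9 that of 28.9% and HOXD4 that of 28.5%. For scale, HPRT1, a metabolic enzyme gene often used as a reference, had a gene total of 135, and ACTB, which encodes β-actin, had 157342. The paper used HPRT1 as an unmethylated, non-target control in its m6A and YTHDC1 binding assays, and the IP libraries enter these means.

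The other 10 coding genes had gene totals from 8.52 to 57.4. HOXB4 (ENSG00000182742.6, chr17:48575507-48578350), known for expanding blood stem cells, had 57.4 in its single transcript HOXB4-201. HOXD1, at the anterior end of its cluster, had 57.2, and HOXC6, a thoracic patterning gene studied in hormone-dependent cancers, had 55.8. HOXA13, a gene of the distal limb and the genital tract, had 41.8, and HOXB6 had 40.8. HOXC8, which helps set thoracic identity, had 34.3, and HOXB5, with roles in lung and gut innervation, had 23.7. HOXC5 had 13.1, HOXB8, which blocks maturation of myeloid cells when overexpressed, had 12.7, and HOXC9 had 8.52, the lowest of the coding genes.

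**Figure D2:**
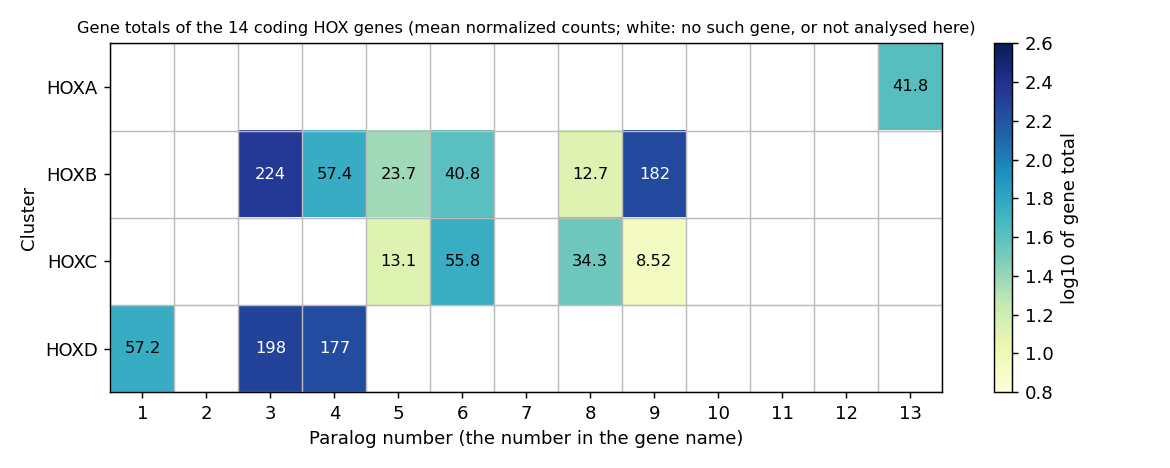
Gene totals of the 14 coding HOX genes, in mean normalized counts, by cluster (rows) and paralog number (columns). Colour gives the log10 of the gene total, and the 4 dark cells with white figures, HOXB3, HOXB9, HOXD3 and HOXD4, are the genes at 177 or more.

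By cluster, the summed gene totals were highest in HOXB, on chromosome 17, at 541 over 6 coding genes. HOXD, on chromosome 2, followed at 433 over 3 coding genes, so that both clusters together held most of the members' counts (46.7% and 37.4%). The lead turned to HOXD per kilobase of gene span, at a sum of 141, and among transcripts whose mean normalized count was 100 or more, at a sum of 349. HOXC, on chromosome 12, had 128 over 4 coding genes and HOXC-AS2. HOXA, on chromosome 7, had 55.4 over HOXA13, HOTTIP and HOXA-AS2. RefSeq names 39 coding genes under the rule, and 1 of 11 in HOXA, 6 of 10 in HOXB, 4 of 9 in HOXC and 3 of 9 in HOXD could be described. The other 25 coding genes are not analysed here.

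By paralog number, HOXD1, HOXB3 and HOXD3, the 3 genes with values of the 8 that RefSeq numbers 1 to 3, had gene totals of 57.2 or more, with a median of 198. The genes numbered 4 to 8, 8 of 15 with values, had a median of 37.6 and ran from 12.7 to 177. The genes numbered 9 to 13, 3 of 16 with values, had a median of 41.8 and ran from 8.52 in HOXC9 to 182 in HOXB9. Per kilobase of gene span, the medians lay close together, at 9.65 for numbers 1 to 3, 6.75 for 4 to 8 and 7.29 for 9 to 13. These medians cover only the genes with values. On both scales the ranges overlapped, and HOXB9 and HOXC9, which carry the same number in different clusters, stood at opposite ends of their range.

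Dividing by gene span changed the order. HOXD4, whose span is 1677 bp, came first with 105.55 mean normalized counts per kilobase of span, 3.02 times the value of HOXB9, which was 34.9. HOXD1 followed at 25.5 per kilobase and HOXB4 at 20.2. HOXB3, first by gene total, had 5.42 per kilobase over a span of 41372 bp and came to rank 10 of the 17 genes. HOXD3, with a span of 20570 bp, had 9.65 per kilobase. HOXB9 and HOXD4 were thus among the 4 highest genes on both scales, whereas HOXB3 and HOXD3 were so on the scale of reads alone. A span counts introns and alternative starts that a listed transcript may lack, and transcript lengths were not used here.

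**Figure D3:**
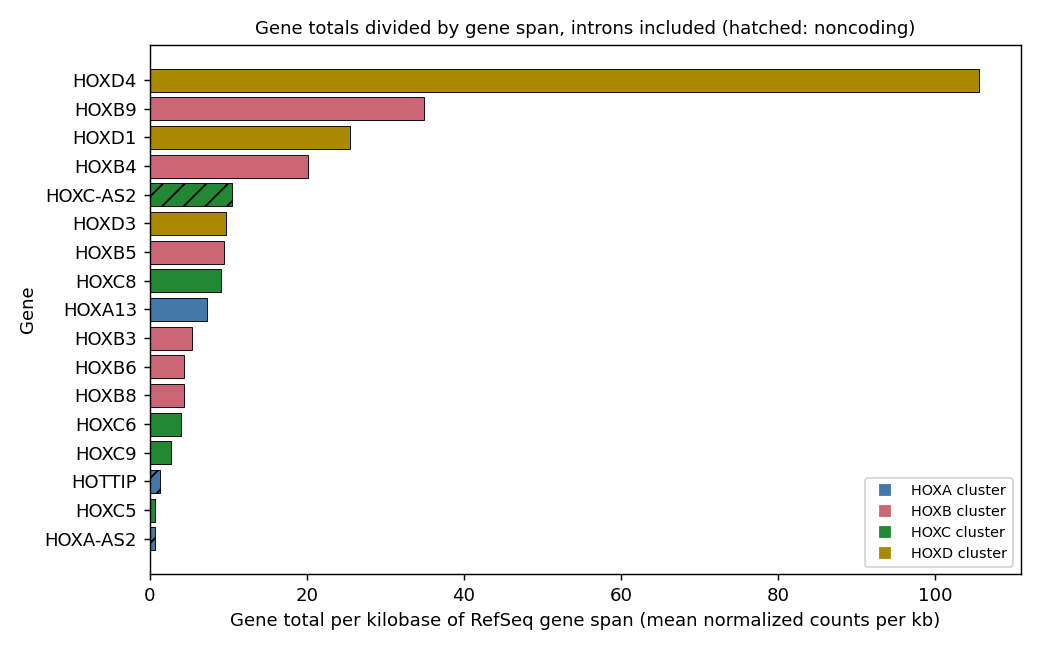
Gene totals divided by the RefSeq gene span, in mean normalized counts per kilobase (x axis), for each of the 17 genes (y axis). Bars are coloured by cluster, hatched bars are noncoding, and HOXD4 stands apart at 105.55.

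Most of the 14 coding HOX genes with values were represented by a single listed transcript. A transcript was listed only if 50% or more of the samples had 5 or more reads of it, and coding HOX genes had few reads. Whether this filter sets the transcript numbers and types given here was not tested. Of the 14 coding HOX genes, 10 (71.4%) had 1 listed transcript, against 18.3% of all protein-coding genes, and the mean number per gene was 1.57 against 4.69. Among SOX genes, whose median gene total was also low, 8 of 11 (72.7%) had 1 listed transcript and the mean was 1.91. For FOX and KLF genes the share was 42.3% and 31.25%. Annotated types differed too. Of the 22 transcripts of coding HOX genes, 21 (95.5%) were annotated as protein-coding, against 59.6% of the 65841 transcripts of all protein-coding genes. By mean normalized count the difference was smaller, with 99.5% in protein-coding transcripts for the HOX genes and 87.6% for all protein-coding genes. Retained-intron transcripts numbered 0 of 22, against 17.2%, and nonsense-mediated decay transcripts 0 of 22, against 9.86%. Among all protein-coding genes, these types held 4.16% and 4.22% of the mean normalized counts. The 1 other HOX transcript was HOXB6-204, a processed transcript with a mean normalized count of 6.10.

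The other 4 coding genes had more than 1 listed transcript, with 2 each in HOXD3, HOXB6 and HOXB8 and 6 in HOXB3. All 6 of HOXB3 were annotated as protein-coding. HOXB3-207 (ENST00000472863.5) had a mean normalized count of 125 and made up 55.6% of the gene total. HOXB3-210, HOXB3-205 and HOXB3-212 lay close together, at 29.6, 28.5 and 27.1. HOXB3-211 and HOXB3-204 had 7.24 and 7.14. In HOXD3, HOXD3-201 (ENST00000249440.4) had a mean normalized count of 172 and HOXD3-202 had 26.9, so that 86.4% of the gene total lay in the main transcript. HOXB6-201 held 85.1% of its gene total, at 34.7, and HOXB8-201 held 70.8%, at 9.02, beside 3.72 for HOXB8-203. HOXB9-201 (ENST00000311177.7) was the HOX transcript with most reads, at 182, followed by HOXD4-201 (ENST00000306324.4) at 177. Counts were divided among transcripts by a statistical estimate, so the shares within HOXB3 can rest on few reads of a transcript's own.

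**Figure D4:**
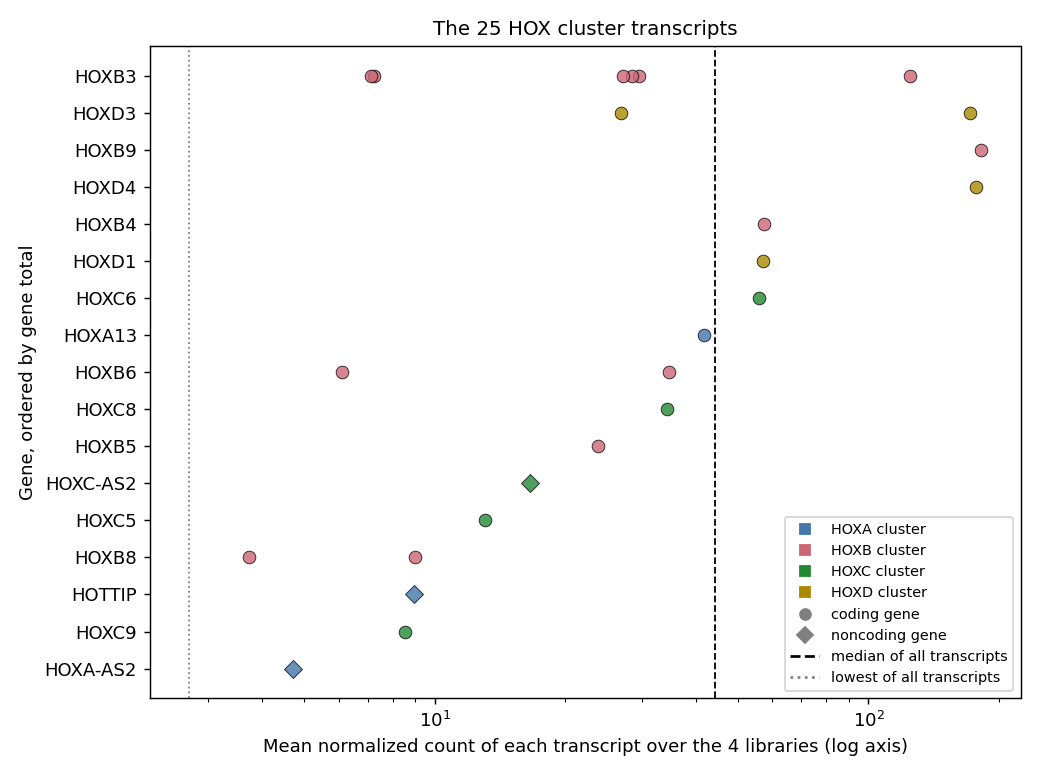
Mean normalized count of each of the 25 HOX cluster transcripts (x axis, log scale), by gene in the order of gene totals (y axis). Points are coloured by cluster, and 7 lie right of the dashed line at 44.2, the median of all 75165 transcripts.

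Of the 25 transcripts, 8 (32.0%) had a mean normalized count under 10, against 17.2% of all transcripts. The lowest mean in the whole table was 2.72, and 2 HOX transcripts, HOXB8-203 and HOXA-AS2-202, lay within 2-fold of it. The 7 transcripts above the table's median of 44.2 were those named for HOXB9, HOXD4, HOXD3 and HOXB3 at 125 to 182, and HOXB4-201, HOXD1-201 and HOXC6-201 at 55.8 to 57.4.

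The noncoding members had fewer reads than most coding HOX genes. HOXC-AS2 (ENSG00000250133.2, chr12:53995208-53996785) had a gene total of 16.5, which came from HOXC-AS2-202, a transcript annotated as retained intron. HOTTIP (ENSG00000243766.8, chr7:27200421-27207259) had 8.93 in HOTTIP-203. HOXA-AS2 (ENSG00000253552.8, chr7:27121919-27128760), which runs opposite to HOXA3 and HOXA4, had 4.71 in HOXA-AS2-202. The median of the coding HOX genes was 5.46 times that of the noncoding members. This ratio was 3.415 among transcripts whose mean normalized count was 10 or more, and 2.696 without the genes that overlap another gene of the clusters. Coding genes held 97.4% of the members' summed gene totals. The ranges overlapped, since HOXC-AS2 lay above HOXC5, HOXB8 and HOXC9. Per kilobase of span, the medians were 8.18 for the coding and 1.31 for the noncoding members, with HOXC-AS2 at 10.5, the fifth of the 17 genes.

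Against lncRNA genes as a class, HOXC-AS2 exceeded 45.7%, HOTTIP 25.8% and HOXA-AS2 5.25% of 3638 genes, whose median gene total was 19.1. Other antisense lncRNA genes, taken as the 495 whose names end in -AS or -AS and a number, had a median of 36.0, and 318 of them lay above the lncRNA median, against 0 of the 3 noncoding HOX members. Of the 16 noncoding genes that RefSeq names under the rule, the other 13, HOTAIR and HOTAIRM1 among them, are not analysed here.

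HOTTIP and HOXA13 lie head to head, with 330 bases between their annotated starts. The gene total of HOXA13 was 4.68 times that of HOTTIP. Of 12 listed neighbours of the clusters outside the naming rule, 1 had values. This was HAGLR, a lncRNA of the HOXD cluster, which overlaps HOXD1 by 291 bp and had a gene total of 169 over 4 transcripts, 2.95 times that of HOXD1. HAGLR was thus above each of the 3 noncoding members and above 10 of the 14 coding HOX genes.

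Several members overlap each other in their RefSeq gene spans, introns included. Whether the listed transcripts share exon sequence there was not tested, so how far reads could be split between such genes is not known. HOXB4 lies wholly within the span of HOXB3, over 2844 bp. HOXD3 and HOXD4 share 698 bp. HOXC5 and HOXC6 share 13936 bp, the whole span of HOXC6, and the RefSeq spans of both and of HOXC4 begin at the same base, 54016888. HOXB5 and HOXB6 lie within the span of the antisense gene HOXB-AS3. The libraries were made with a stranded kit after rRNA depletion, which keeps the strand of the RNA. Whether the counting used that strand is not given in the sources used here, so whether reads of a gene and its antisense partner were separated is not known. In all, 10 of the 17 genes overlap another gene of the clusters, HAGLR included, and HOXB9, HOXA13, HOXC8, HOXB8, HOXC9, HOXC-AS2 and HOTTIP do not.

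HOX proteins bind DNA together with TALE homeodomain cofactors of the PBX, MEIS and PKNOX families. Most of these cofactor genes, though not PKNOX2 and MEIS1, had more reads than most HOX genes. The 8 TALE genes described here had a median gene total of 319.9. PBX2 was highest at 1437.5, followed by PKNOX1 at 368, MEIS2 at 329.6, PBX4 at 326 and PBX3 at 314. These 5 lay above HOXB3, the highest HOX gene. MEIS3 had 62.3, PKNOX2 28.7 and MEIS1, a partner of HOXA9 in leukemia, 21.4, within the range of the HOX genes.

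The 17 genes of the next list were Polycomb, trithorax and related chromatin regulators, among them genes that keep HOX clusters silent or active. All had gene totals above that of the highest HOX gene. The lowest was RNF2, at 229 against 224 for HOXB3. Their median gene total was 1429. EZH2, the Polycomb methyltransferase that places the repressive H3K27 mark, had 2784, and KMT2A, the trithorax methyltransferase known for sustaining HOX genes in leukemia, had 20696, the highest of the list. WDR5, the partner of HOTTIP, had 2044, and KDM1A, a demethylase linked to HOTAIR, had 3335. Of 6 retinoic acid and retinoid X receptors, through which retinoic acid switches on HOX genes in order, RARA, RARG, RXRA and RXRB had gene totals from 1085 to 2858.

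**Figure D5:**
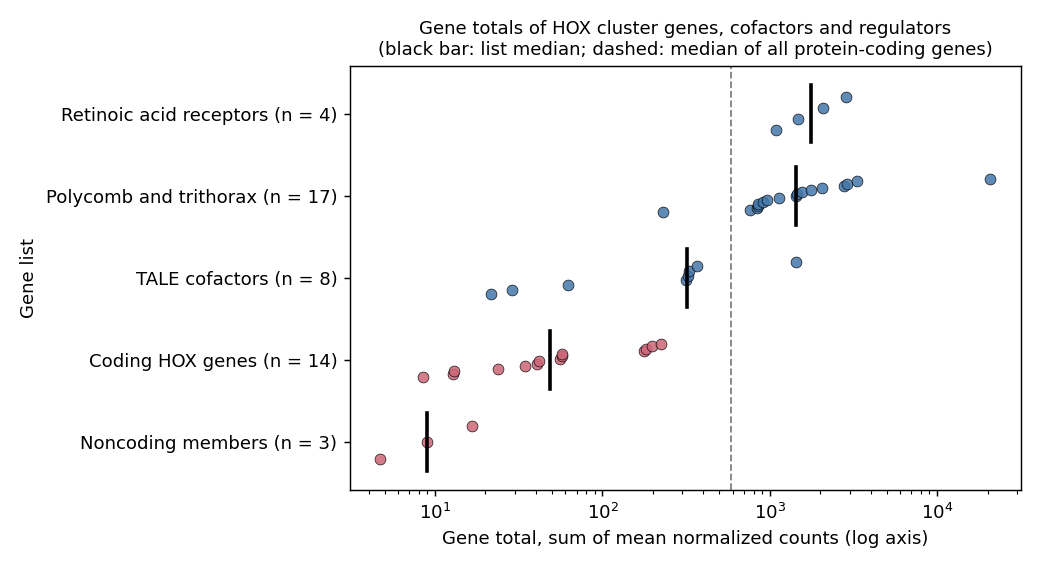
Gene totals (x axis, log scale, in mean normalized counts) of the noncoding members, the coding HOX genes and the lists of cofactors and regulators (y axis), with 1 point per gene and a black bar at each median. The dashed line is the median of all protein-coding genes, 588, and all HOX points lie left of it.

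Other families of developmental transcription factors reached higher gene totals. The 53 FOX, SOX and KLF genes had a median gene total of 369, and 25 of them lay above the median of all protein-coding genes, against 0 of 14 HOX genes. The median was 534 for FOX, 599.9 for KLF and 30.0 for SOX genes, so that the SOX median was below that of the coding HOX genes. Of the 11 SOX genes, 4 nevertheless had a gene total of at least 1000. No test was run on these differences, because the members are genes and not replicates.

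The line's markers were checked in the same table. VIM, the mesenchymal filament gene, had a gene total of 80785, AXL 63189, MSN 28459, FN1 16414, CD44 14306 and ZEB1 1823. A list of epithelial and luminal genes presumed low in this line was drawn up here. Of these, CDH1, which encodes E-cadherin, had 10.0, CLDN3 72.3, EPCAM 78.3, CLDN7 249 and GATA3 584. CLDN4 had 2266, KRT18 27123 and KRT8 31132, so that these 3 lay above the median of all protein-coding genes, 588, and went against the list. In the paper, lung metastases of this line were stained for human CK18, which KRT18 encodes, so the place of KRT18 on the list was wrong. GATA3 lay close to that median, and 5 of the 8 genes with values, GATA3 and CLDN7 among them, lay above the highest HOX gene. ESR1, PGR and DCN are not analysed here. PTPRC, a leukocyte gene, had 3.81, PECAM1, an endothelial gene, 101.9, and COL1A1, a collagen gene of fibroblasts, 705. YTHDC1, carried by the vector as well, had 55488.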

How the data were processed

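RIP-seq was analysed from 2 anti-flag IP and 2 input libraries, grouped by their titles. Per the labels, STAR (version 2.7.2b) and RSEM (version 1.2.31) were used with GRCh38. Per the paper's methods, the authors used GENCODE v33 annotations, dropped a transcript unless 50% or more of the samples had 5 or more reads of it, applied RUVSeq and compared the groups with DESeq2. The signal used here, as deposited by the authors, is each transcript's mean normalized count over all libraries together, not divided by length. The authors' table also holds the fold change of their comparison, its standard error and p-values, none of which were used, so enrichment in the IP is not reported. Columns of other samples numbered 0.

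Transcript values were summed per gene identifier. All 17 member identifiers matched the table of gene names. Positions, spans and promoters came from RefSeq (GRCh38.p14). Every member gene is named, and 1 gene of the cofactor list is not reported here. Members, lists and alternatives were chosen with earlier results of these data known. With no value per library, no test or error was computed here. Depth per library is unknown. Sums and percentiles were tested on simulated data of 500 genes. Python 3.11.15, numpy 2.4.6, pandas 2.3.3 and matplotlib 3.10.9 were used.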

Additional observations from a re-analysis of the deposited data

How the results depend on the processing

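No member gene exceeded its class median under the settings that kept gene totals as read counts, and this was not computed per kilobase of span. With the most abundant transcript of each gene alone, HOXB9 was the highest coding gene at 182, HOXB still led the clusters at 431 and the coding share was 97.0%. With transcripts of at least 10 mean normalized counts, the ratio of the coding to the noncoding median was 3.415, the coding share 98.5%, the HOXB sum 507 and HOXB3 209.975. With at least 100, 4 transcripts of 4 genes were left, none of them noncoding, so the coding share was 100%, no ratio could be given, HOXD led at 349 and HOXB9 at 182. Without retained-intron, nonsense-mediated decay and processed transcripts, the ratio was 7.15, the share 98.8%, the HOXB sum 535 and HOTTIP the highest noncoding member at 8.93, because HOXC-AS2-202 is annotated as retained intron. Without HOTTIP, the ratio was 4.59 and the share 98.1%. The remaining settings were added after the data were seen. Per kilobase of gene span, the ratio was 6.26, HOXD led at 141 and HOXD4 at 105.55. Without the genes that overlap another HOX gene, 8 transcripts of 7 genes were left, the ratio was 2.696, the share 91.6%, the HOXB sum 194 and HOXB9 led at 182. Values per kilobase of coding length were not run, since no coding length was used, and replicates could not be left out of a mean over all libraries. With only 3 noncoding members, their median is the value of a single gene. Counting error cannot be given without depth, which bears most on transcripts near the lowest listed mean of 2.72.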
